A study of Equus caballus with 3 samples.

Results

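Within the peripheral blood (PB) mesenchymal stromal cells (MSCs), the cells with the highest share of *PIGK* and *PLTP* transcripts were described. Every kept PB cell was ranked by its *PIGK* and *PLTP* unique molecular identifiers (UMIs) divided by its total UMIs, and the top 350 were taken. They were 6.58% of the 5318 kept PB cells, and the comparison group was the other 4968. The series held 16301 kept cells of 24392 barcodes, where a kept cell had 2500 to 15000 UMIs and at most 3% of them from the mitochondrial chromosome. Because the cells were selected on *PIGK* and *PLTP*, the values of these genes are given only as a description and are left out of every count.

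The cells came from a healthy warmblood mare aged 10 years. Its adipose tissue (AT), its bone marrow (BM) and its PB each gave an MSC culture of 2 passages, with no treatment named in the labels, and each source gave 1 library made with the 10x Genomics 3′ kit. The study asked how MSCs differ between and within these sources. The source name deposited with all 3 samples says mononuclear cells of the blood, and the sources used here are those of the titles. With 1 animal and 1 library per source there was no replicate, so no test was run and no difference below is set against a spread between animals.

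*PIGK* encodes the catalytic subunit of the GPI transamidase, the complex of the endoplasmic reticulum (ER) that exchanges a signal peptide of newly made proteins for a glycosylphosphatidylinositol (GPI) anchor. *PLTP* encodes phospholipid transfer protein, a secreted protein that moves phospholipids between lipoproteins. Cultured MSCs are fibroblast-like cells that make and secrete much extracellular matrix, so a large part of their messenger RNA codes for proteins that pass through the ER.

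The kept PB cells held 41622445 UMIs, 2783526 of them in the *PIGK* and *PLTP* high cells and 38838919 in the others. All 350 high cells and all 4968 other cells carried a barcode that also stood in the AT matrix, where only 3 and 34 of them passed the filters. In the BM matrix the barcodes of 2 high cells and 46 other cells were found. At the 347 AT entries that share a barcode with a high cell and failed the filters, the median total was 859 UMIs. *PIGK* and *PLTP* together made 717 CPM (counts per 1000000 UMIs) there, against 171 CPM at the 4934 entries sharing a barcode with other kept PB cells and 128 CPM in the kept AT cells. Without the PB cells whose barcode was also kept in AT or BM, the counts of genes given below were 109 and 13 in place of 112 and 14.

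Levels are CPM of the UMIs summed over the cells of a group, and a ratio is the difference of log2(CPM + 1), high cells minus other kept PB cells. Intervals are exact 95% Poisson intervals and, like the counting bounds of ratios, cover counting error only. *PIGK* stood at 302 CPM in the high cells and 59.8 CPM in the others, and *PLTP* at 678 and 107 CPM. The high cells carried a median of 7 UMIs of both genes together, with quartiles of 5 and 9 and a range of 2 to 43, while the other cells carried a median of 1. The last 10 cells inside the limit had 614 to 618 CPM of both genes and the first 10 outside it had 607 to 613 CPM, so the limit cut a continuous range. A cell of few total UMIs could pass with 2 UMIs. The rule took 95 of 1330 cells in the lowest quartile of total UMIs (7.14%), 68 of 1329 in the second (5.12%), 73 of 1329 in the third (5.49%) and 114 of 1330 in the highest (8.57%).

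Each gene was also used alone to choose 350 cells, as a description of the rule. Among the 350 cells with the highest *PIGK* share, *PLTP*, which that ranking did not use, stood at 331 CPM against 132 CPM in the rest, a log2 ratio of 1.32. Among the 350 cells with the highest *PLTP* share, *PIGK* stood at 185 CPM against 68.5 CPM, a log2 ratio of 1.42. The rankings shared 87 cells, which is 24.9% of each list, where 350 cells are 6.58% of the kept PB cells. Most cells of each list were therefore not in the other. Of the 350 high cells, 173 were in the *PIGK* list and 252 in the *PLTP* list.

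The high cells had less mitochondrial RNA, and their depth differed with the ranking. Their median total was 8021 UMIs (quartiles over cells 6164.5 and 9795.5) against 7736 (quartiles 6323 and 9279.5), and the total is also the denominator of the rule. With *PIGK* alone the order was turned, at 7615.5 UMIs against 7755.5, and with *PLTP* alone the medians were 7720.5 and 7751.5. A median of 2304 genes was detected per high cell and 2167 per other cell. Mitochondrial transcripts made 1.14% of the summed UMIs of the high cells and 1.58% of those of the others. The median high cell held 1.12% mitochondrial UMIs, with quartiles of 0.920% and 1.36%, and the median other cell 1.56%, with quartiles of 1.34% and 1.80%. The upper quartile of the high cells therefore lay just above the lower quartile of the others. Cytosolic ribosomal protein genes made 19.7% of the UMIs of the median high cell and 23.3% of those of the median other cell.

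The high cells expressed 5 of 6 MSC surface genes above 50 CPM, and markers of blood, endothelial, fat and cartilage cells were near 0, whereas osteoblast markers were not. Of the MSC surface genes, *CD44* stood at 509 CPM in the high cells and 523 CPM in the others, *ITGB1* (CD29) at 197 and 204 CPM, *THY1* (CD90) at 83.7 and 91.0 CPM and *ENG* (CD105) at 93.0 and 68.8 CPM. *B2M*, the light chain of MHC class I, stood at 2708 and 1715 CPM, a log2 ratio of 0.66. *NT5E* (CD73) stood at 1.08 and 1.03 CPM. The 14 haematopoietic markers in the matrix summed to 13.7 CPM in the high cells and 13.5 CPM in the others, and 10 of them, *PTPRC* (CD45), *CD14* and *CD34* included, were at 0 UMIs in the high cells. The endothelial markers summed to 2.16 and 2.99 CPM, the adipocyte markers to 2.87 and 1.78 CPM, the chondrocyte markers to 7.90 and 7.29 CPM, and the smooth muscle and pericyte markers to 57.8 and 62.5 CPM. These lists differed by less than 5 CPM in their sums. The 7 osteoblast markers in the matrix summed to 708 CPM in the high cells and 394 CPM in the others, and 5 of them had counting bounds above 0, with *ALPL*, tissue-nonspecific alkaline phosphatase, at 556 and 309 CPM. The part of the osteoblast markers in the other ratios was not tested.

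Of 2597 genes with at least 50 CPM in either group, 112 (4.31%) had a log2 ratio of 1 or more and 14 (0.539%) had a ratio of -1 or less. Genes past these limits are called higher and lower below. The median ratio over all 2597 genes was 0.09, with quartiles of -0.16 and 0.41, and 58.5% of the genes lay above 0. The counting bound nearest to 0 was itself at 1 or more for 42 of the 112 higher genes and at -1 or less for 7 of the 14 lower genes. All 112 were above 0 and all 14 below 0 in each quartile of total UMIs, but only 14 and 2 passed the limit in every quartile. The quartiles divide the same cells on which the genes were chosen, so the shared sign is not independent of that choice. When *PIGK* alone chose the 350 cells, all 112 genes were again above 0 with a median ratio of 0.96, and 41 of them had a ratio of 1 or more. With *PLTP* alone, all 112 were above 0, also with a median of 0.96, and 47 were at 1 or more. These counts keep the 112 genes whatever their level in the new groups, and with the minimum of 50 CPM applied anew 39 and 45 of the 112 were higher. The rankings share cells with the one that chose the genes, so they are not independent of it. Ranking the cells on UMIs thinned to 2500 per cell left 22 higher and 4 lower genes, and taking the top 700 cells left 36 and 7. Among the 2659 cells below the median share of S and G2/M genes, where 350 cells are a larger part of the population, 15 genes were higher and none lower.

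Of the 25 genes with a symbol and the largest ratios, several encode secreted proteins. *SERPINF1*, which encodes the secreted serpin PEDF, stood at 878 CPM (844 to 914) in the high cells and 261 CPM (256 to 266) in the others, a log2 ratio of 1.75 with counting bounds of 1.66 and 1.83. A median high cell held 7.87 *SERPINF1* UMIs per 10000, with quartiles of 4.38 and 11.02, against 2.04 with quartiles of 0.00 and 3.92, so the interquartile ranges of the groups did not overlap. *PCOLCE*, the enhancer of procollagen C-proteinase, stood at 620 and 194 CPM (ratio 1.67). *GSN*, the actin-severing protein gelsolin, stood at 630 and 205 CPM (1.62). *OLFML3*, a secreted olfactomedin-domain protein, stood at 617 and 233 CPM (1.40). *MGP*, the matrix Gla protein that inhibits calcification, stood at 278 and 105 CPM (1.39), and *ECM1*, a secreted matrix protein, at 106 and 35.3 CPM (1.55). For each of these 6 genes the ratio was above 1 in all 4 quartiles of total UMIs. Over single cells, the interquartile ranges of *PCOLCE*, *GSN* and *OLFML3* did overlap between the groups. For *PCOLCE* the lower quartile of the high cells was 2.76 UMIs per 10000 and the upper quartile of the others 2.85. The median high cell held 0 UMIs of *MGP* and of *ECM1*.

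**Figure D1:**
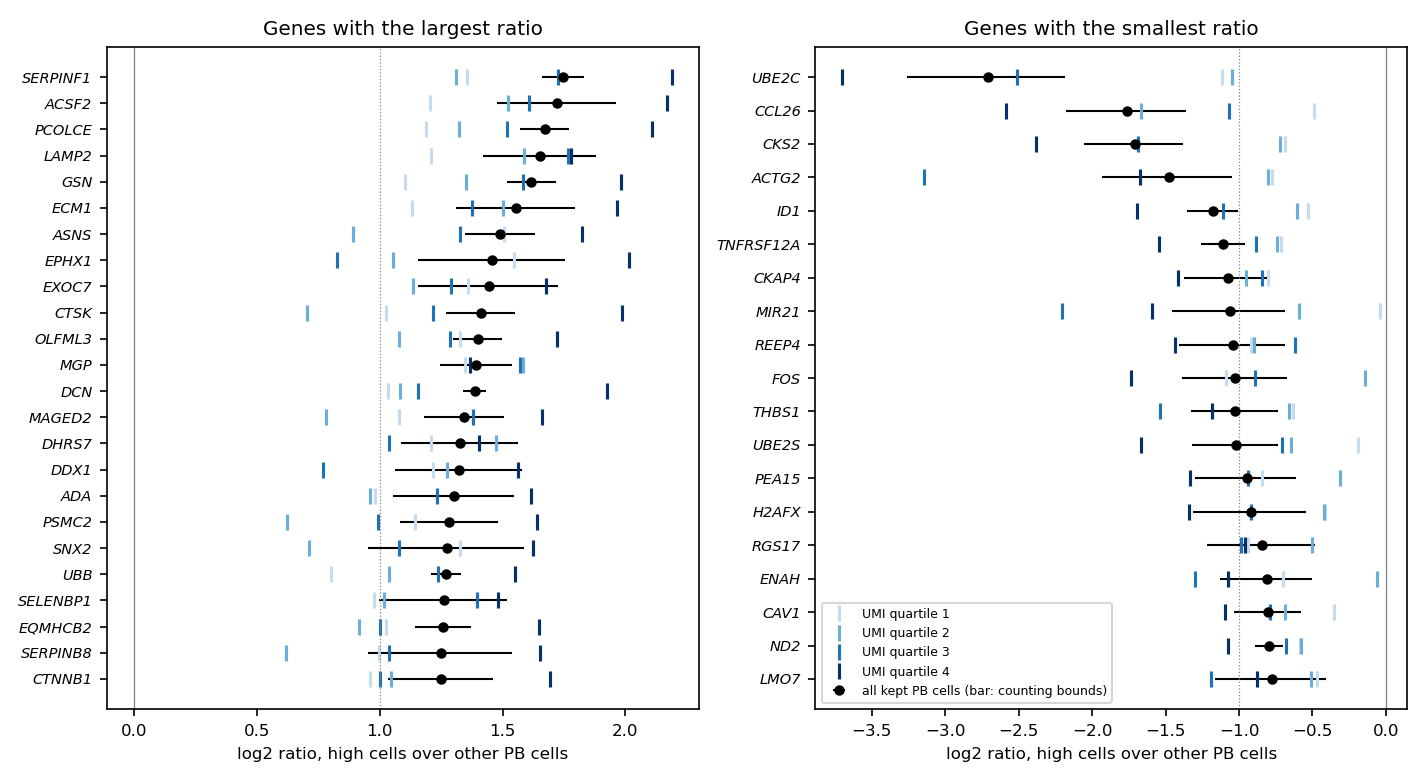
Log2 ratio (x axis, difference of log2(CPM + 1), high cells minus other kept PB cells) of 24 of the genes with the largest and 19 of those with the smallest ratio. Black points give the summed UMIs of all kept PB cells with bars for counting bounds, and coloured ticks the ratio within each quartile of total UMIs, where *SERPINF1* ran from 1.31 to 2.19 and *UBE2C* from -3.70 to -1.05.

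Others of the 25 genes encode enzymes and further proteins of the cell. *ASNS*, asparagine synthetase, stood at 299 and 106 CPM (ratio 1.49), *ACSF2*, a mitochondrial acyl-CoA synthetase, at 109 and 32.4 CPM (1.72) and *EPHX1*, microsomal epoxide hydrolase, at 67.2 and 23.8 CPM (1.46). *ADA*, adenosine deaminase, stood at 95.9 and 38.3 CPM (1.30). *UBB*, a polyubiquitin gene whose repeats resemble those of other ubiquitin genes, stood at 1555 and 645 CPM (1.27). The study counted features of identical sequence in a separate run and merged them to 1 entry, and whether *UBB* was among them is not given in the sources used here. *EQMHCB2*, an equine MHC class I gene with close relatives in the genome, stood at 437 and 182 CPM (1.26), and its reads may likewise be shared with its relatives. *CTNNB1*, which encodes beta-catenin, stood at 126 and 52.3 CPM (1.25). The others of the 25 were *EXOC7*, *MAGED2*, *DHRS7*, *DDX1*, *SNX2*, *SELENBP1* and *SERPINB8* beside those described with the gene lists, and their ratios ran from 1.25 to 1.44. The identifier ENSECAG00000032733, without a symbol in the matrix, had the largest ratio of all, at 123 and 25.4 CPM (2.24).

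Lysosomal genes had the highest median of the lists with 3 or more measured genes. Of 34 listed genes 22 were measured, 12 were higher, where 4.31% of all measured genes were higher, and none lower, 21 were above 0, and the median ratio was 1.02 against 0.09 over all genes. The gene lists, here and below, were chosen with earlier results of these data known, so their counts are descriptions only. *LAMP2*, a protein of the lysosomal membrane, stood at 119 and 37.1 CPM (ratio 1.65) and *CTSK*, the collagen-degrading protease cathepsin K, at 303 and 113 CPM (1.41). The median of the list ran from 0.68 to 1.25 over the quartiles of total UMIs. *LAMP1*, the other major glycoprotein of the lysosomal membrane, chosen here after its value was seen, stood at 174 and 173 CPM (0.01). The list thus held both the strongest ratios and a few members at 0.

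Genes that fold proteins in the ER were higher in part. Of 22 measured ER chaperones and foldases 7 were higher, against 4.31% of all measured genes, and none lower, and the median ratio was 0.60. The disulfide isomerases *PDIA5* and *PDIA3* stood at 118 and 49.6 CPM (ratio 1.23) and at 552 and 237 CPM (1.22), and the chaperone *HSP90B1* at 1102 and 491 CPM (1.16). At the other end of the list, *CRELD2* stood at 73.6 and 102 CPM (-0.46). Of 20 genes of N-glycosylation and the translocon 3 were higher, the oligosaccharyltransferase subunits *DDOST* (76.9 and 33.9 CPM, 1.16), *RPN2* (610 and 298 CPM, 1.03) and *RPN1* (283 and 138 CPM, 1.03), while the median of the list was 0.19. Of 18 genes of COPI and COPII vesicle transport, *SCFD1* was higher (81.9 and 37.2 CPM, 1.12) and the median was 0.30, and 1 gene of 18 is near the share of higher genes among all genes.

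Few genes of the pathways of *PIGK* and *PLTP* were measured. Of 26 listed genes of GPI transamidase and anchor synthesis other than *PIGK*, 5 were measured, none passed either limit and the median ratio was 0.35. *PIGT*, a subunit of the same transamidase, stood at 94.1 and 56.9 CPM (ratio 0.72), *DPM1*, which makes the mannose donor, at 85.1 and 54.4 CPM (0.64), and the subunit *PIGS* at 52.5 and 41.0 CPM (0.35). *GPAA1*, another subunit, stood at 325 and 312 CPM (0.06) and *PIGY*, of an early step of anchor synthesis, at 157 and 183 CPM (-0.22). The subunit *PIGU*, chosen here after its value was seen, was under the minimum of 50 CPM in both groups. It stood at 33.4 and 15.7 CPM (1.04, counting bounds 0.64 and 1.44). Among 5 measured GPI-anchored proteins the median was 0.07, led by *ALPL* with 0.85. Of 20 listed genes of lipid transfer and of liver X receptor targets, 4 were measured, none passed and the median was 0.42. *APOD*, a lipocalin that carries lipids, stood at 60.7 and 30.5 CPM (0.97).

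Proteasome genes were above 0 nearly throughout. Of 32 measured genes 31 were above 0 and 6 were higher, against 4.31% of all measured genes, and the median ratio was 0.65. *PSMC2* and *PSMC4*, ATPases of the regulatory particle, stood at 143 and 58.3 CPM (1.28) and at 109 and 50.4 CPM (1.10), and *PSMA6*, an alpha subunit of the core, at 213 and 92.5 CPM (1.20). Only *POMP*, the proteasome maturation protein, lay below 0, at 332 and 359 CPM (-0.11). All 8 subunits of the CCT chaperonin, which folds actin and tubulin, were above 0, and *CCT5* (149 and 62.3 CPM, 1.24) and *CCT8* (165 and 77.2 CPM, 1.09) were higher. Of 16 cytosolic aminoacyl-tRNA synthetases, which load amino acids onto their tRNAs, 15 were above 0 with a median of 0.69, and *CARS* (98.1 and 41.5 CPM, 1.22) and *RARS* (63.9 and 27.0 CPM, 1.21) were higher.

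Single genes led several metabolic lists. Of 18 genes of the integrated stress response and serine synthesis, *ASNS* and *PHGDH*, the first enzyme of serine synthesis (81.9 and 34.5 CPM, ratio 1.22), were higher, and the median was 0.14. *ATF4*, the transcription factor that drives this response, chosen here after its value was seen, stood at 775 and 856 CPM (-0.14). Of 16 glycolytic genes *LDHA*, lactate dehydrogenase A, was higher (2248 and 986 CPM, 1.19), and the median was 0.55. Of 13 annexins and calcium-binding S100 genes *ANXA5* was higher (2096 and 951 CPM, 1.14), with the same median of 0.55. Of 9 heat shock genes all were above 0, the median was 0.47 and *DNAJA1* was higher (136 and 65.6 CPM, 1.04). With 4.31% of all genes higher, 1 higher gene in a list of this size is no result about the list.

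Matrix genes split by kind, and their counts stand against the 4.31% of all measured genes that were higher. Of 17 genes that modify or process collagen, 3 were higher: *PCOLCE*, the prolyl 4-hydroxylase subunit *P4HA2* (264 and 117 CPM, ratio 1.16) and the prolyl 3-hydroxylase *P3H1* (110 and 51.1 CPM, 1.09). All 5 measured small leucine-rich proteoglycans were above 0 with a median of 0.84, of which decorin (*DCN*, 2702 and 1032 CPM, 1.39) and osteomodulin (*OMD*, 117 and 53.9 CPM, 1.11) were higher, and lumican (*LUM*) stood at 7701 and 4308 CPM (0.84). Of 19 other matrix regulators and secreted proteins 6 were higher and the median was 0.37, and *TNC*, the matrix protein tenascin C, stood at 83.7 and 143 CPM (-0.77). That list was chosen with earlier results of these data known. It holds the leading genes *SERPINF1*, *GSN*, *OLFML3* and *MGP*, so its count is a description only. The collagens themselves did not follow. Of 8 measured fibrillar and associated collagens 7 were below 0 with a median of -0.39, none passed the limit, and *COL12A1* stood at 105 and 163 CPM (-0.62). Of the osteoblast markers, *IFITM5*, a membrane protein of bone-forming cells, stood at 73.3 and 32.4 CPM (1.15).

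**Figure D2:**
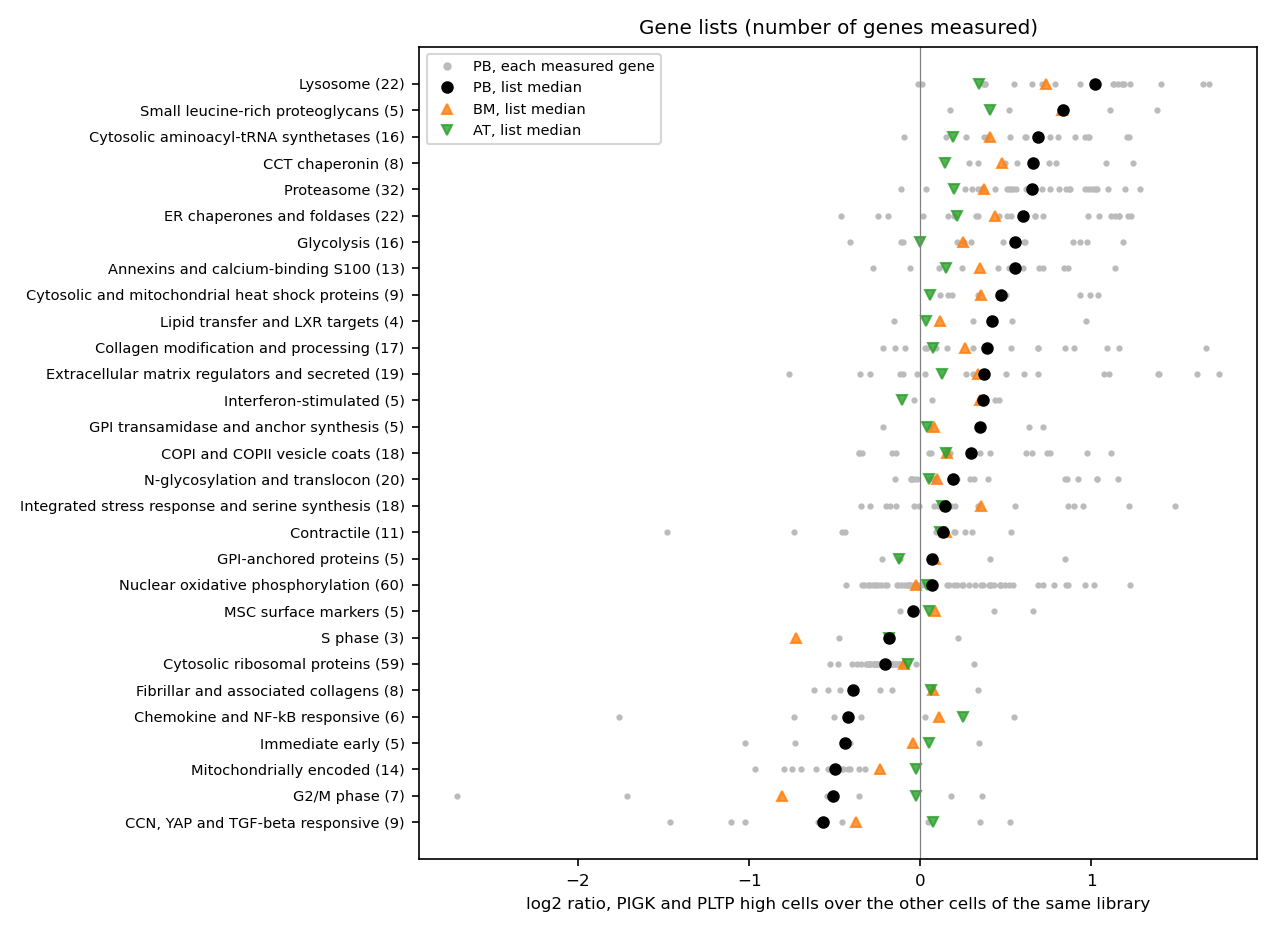
Log2 ratio (x axis, high cells minus the other cells of the same library) for each list with at least 3 measured genes, with the number measured in PB after its name. Grey points are the measured genes in PB, black circles the list medians in PB, and triangles the medians of the same genes when the ranking was applied to BM (upward) and AT (downward). Lysosome stood highest in PB at 1.02 and the CCN, YAP and TGF-beta responsive genes lowest at -0.57.

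The lower genes included regulators of mitosis and part of the CCN, YAP and TGF-beta responsive list. *UBE2C*, the ubiquitin-conjugating enzyme of the anaphase-promoting complex, stood at 11.1 CPM (7.57 to 15.8) in the high cells and 78.2 CPM in the others, a log2 ratio of -2.71. *CKS2*, which binds cyclin-dependent kinases, stood at 33.1 and 110 CPM (-1.71) and *UBE2S*, another enzyme of the anaphase-promoting complex, at 47.4 and 97.4 CPM (-1.02). Of 56 listed G2/M genes 7 were measured and *UBE2C* and *CKS2* were lower, against 0.539% of all measured genes. The summed G2/M list stood at 1773 and 2246 CPM and the S phase list at 507 and 614 CPM. Of the 52 G2/M genes in the matrix, those under 50 CPM included, 49 were below 0 and 35 had counting bounds below 0. Over the 13064 genes with UMIs in both groups, the median log2 ratio, taken without the added 1 CPM, was 0.02. The share of all genes under 50 CPM that lay below 0 was not counted, so these counts have no matching share. In the median cell of either group the G2/M list made 0.162% of the UMIs, and the S phase list 0.0458% in the high cells and 0.0383% in the others, so the medians over cells did not follow the sums. These ratios varied with depth, since within the quartiles of total UMIs the ratio of *UBE2C* ran from -3.70 to -1.05 and that of *CKS2* from -2.38 to -0.69. The part of the cell cycle in the other ratios was not tested.

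Of 9 measured genes of the CCN, YAP and TGF-beta responsive list 3 were lower, against 0.539% of all measured genes. The median ratio of the list was -0.57, and 3 of the 9 genes were above 0, the highest at 0.53. *TNFRSF12A*, the receptor of TWEAK, stood at 182 and 392 CPM (ratio -1.11), and *THBS1*, thrombospondin 1, at 45.3 and 93.2 CPM (-1.03). *ID1*, an inhibitor of helix-loop-helix factors, stood at 136 and 310 CPM (-1.18). The chemokine *CCL26* stood at 21.9 and 76.7 CPM (-1.76), and *CCL2*, a chemokine for monocytes, at 345 and 575 CPM (-0.74). Of the 6 measured chemokine and NF-kB responsive genes 2 were above 0, with *SOD2* highest at 114 and 77.2 CPM (0.55). *FOS*, an immediate early gene, stood at 31.3 and 64.7 CPM (-1.03). *ACTG2*, a smooth muscle actin, stood at 19.0 and 54.8 CPM (-1.48), whereas the median over the 11 measured contractile genes was 0.13. *CKAP4*, *MIR21* and *REEP4* were also lower, with ratios of -1.04 to -1.07, and the remaining 7 of the 20 named genes, from *PEA15* to *LMO7*, lay between -0.95 and -0.78. The identifier ENSECAG00000026891, on chromosome 1 and without a symbol, had the lowest ratio, -2.77.

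Ribosomal and mitochondrially encoded genes were low as groups without passing the limit. Of 59 measured ribosomal protein genes 58 were below 0, and the median ratio was -0.20. All 14 measured mitochondrially encoded genes were below 0, with a median of -0.50, and *ND2*, a subunit of complex I, stood at 479 and 832 CPM (-0.80). The 60 measured nuclear genes of oxidative phosphorylation had a median of 0.07, and *ATP5F1B*, the beta subunit of ATP synthase (533 and 227 CPM, 1.23), and *NDUFA9*, a subunit of complex I (73.3 and 35.7 CPM, 1.02), were higher, a count of 2 in 60 that is near the 4.31% of all genes and no result about the list. The mitochondrial share limited which cells were kept, and without that limit it was 1.21% in the high cells and 1.60% in the others.

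The same genes fell off along the ranking. In the first 350 cells the 25 leading genes together made 9868 CPM, in the next 350 cells 6022 CPM, and in the following sets of 350 cells 4742 and 4141 CPM. The mitochondrial share over these sets was 1.14%, 1.40%, 1.47% and 1.55%. In 10 bins of the kept cells, *SERPINF1* fell from 744 CPM in the first to 406 CPM in the second and 296 CPM in the third, and lay between 180 and 267 CPM in the rest. The later bins are not a graded ranking. Both genes together stood at 7.15 CPM in bin 8 and at 0 CPM in bins 9 and 10, where cells were tied. Cells with equal UMIs of both genes were ordered by total UMIs, whose median was 6556 in bin 5 and 9767.5 in bin 7. The genes were chosen on the first 350 cells, and the cells ranked after them were part of the comparison group, so the slope beyond the first set describes cells that the rule left out.

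**Figure D3:**
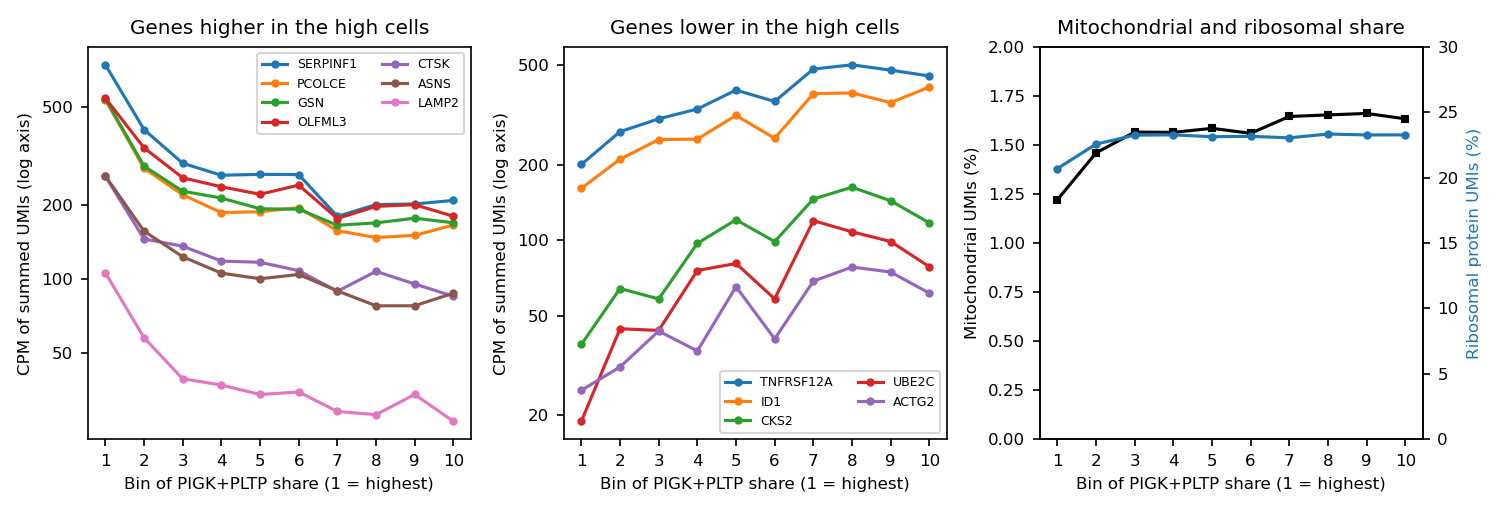
Levels across 10 bins of the 5318 kept PB cells (x axis, bin 1 with the highest *PIGK* and *PLTP* share, 531 or 532 cells each). Both genes together stood at 7.15 CPM in bin 8 and at 0 CPM in bins 9 and 10, so these last bins are not ordered by them. The left and middle panels show CPM on a log axis for 7 higher and 5 lower genes, and the right panel the percentage of UMIs that were mitochondrial (black squares) or of ribosomal protein genes (blue circles), where the mitochondrial share rose from 1.22% in bin 1 to 1.63% in bin 10.

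The high cells were not uniform. The 25 leading genes made a median of 9656 CPM in the single high cell, with quartiles of 5595 and 12163, and 3352 in the other cells, with quartiles of 2384 and 4532. Of the other cells 102 (2.05%) reached the median of the high cells, and 18 high cells lay below the median of the others. Among the 350 kept cells with the highest share of the leading genes, 208 were high cells (59.4%). The leading genes were chosen as those with the largest ratios in these same high cells. Their higher share there and this overlap therefore follow in part from that choice and are a description only. In steps of 1000 CPM, the distribution of the high cells had its lowest point between the peaks at 6000 to 7000, with 16 cells there and 17 in the next step. With a limit at 7000, set after the values were seen, 241 high cells (68.9%) were above it and 109 below. The 241 cells had a median of 8736 UMIs, 1.004% mitochondrial and 18.7% ribosomal protein UMIs, and the 109 cells 6513 UMIs, 1.49% and 23.7%. The 4680 other cells below the same limit had 7755 UMIs, 1.58% and 23.5%, close to the 109 high cells in both shares. Conversely 288 other cells (5.80%) lay above the limit, with 1.16% mitochondrial UMIs in the median cell. The limit was placed on a range of values, and whether its sides hold different cell types was not tested.

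**Figure D4:**
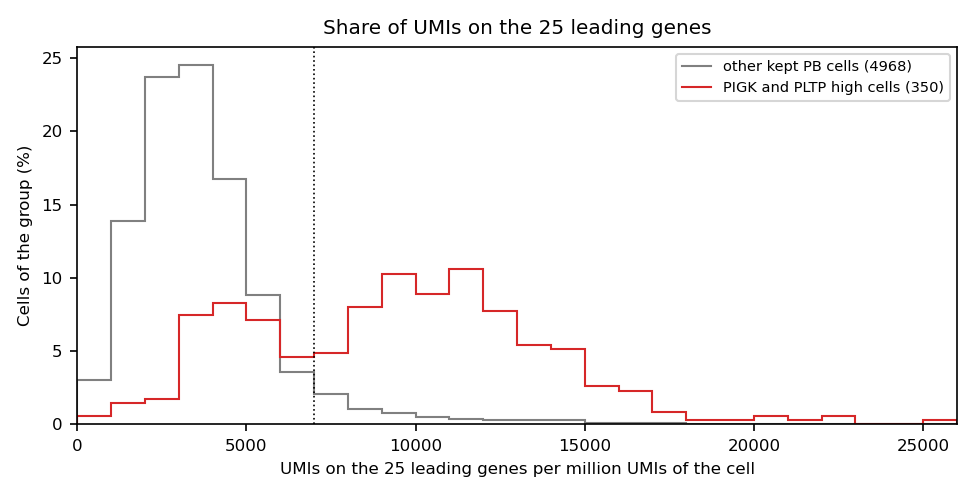
Percentage of the cells of each group (y axis) by the UMIs on the 25 leading genes as CPM of the cell (x axis, steps of 1000), for the 350 high cells (red) and the 4968 other kept PB cells (grey). The dotted line marks 7000, which 241 high cells and 288 other cells reached.

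Cells of the same library ranked by other genes held some of the high cells. Of the top 350 cells by *CCL2*, 15 (4.29%) were high cells, and the top 350 by *ACTG2* likewise held 15. The top 350 by *IFITM5* held 37 (10.6%), and the top 350 by *NSG1*, *MGP* and *NDUFA4L2* together held 45 (12.9%), where *MGP* is itself a leading gene. In that last group *SERPINF1* stood at 506 CPM, *GSN* at 447 CPM and *PCOLCE* at 352 CPM, and 1.44% of the UMIs were mitochondrial, values between those of the high cells and of the other kept PB cells. The high cells were 6.58% of all kept PB cells. The ratios of *IFITM5* (1.15), *CCL2* (-0.74) and *ACTG2* (-1.48) given above come from the same cells, so these overlaps are not separate observations. *ACTG2* and *IFITM5* are sparse, at 54.8 and 32.4 CPM in the other kept PB cells, whereas *CCL2* stood at 575 CPM there. The rankings depend on total UMIs, and whether the overlaps differ from one another was not tested.

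The same ranking was applied to the other libraries. In BM, where the 350th cell had 471 CPM of both genes and a high cell a median of 4 UMIs, 41 of 2804 genes were higher and 31 lower. In AT, where these values were 372 CPM and 3 UMIs, none of 2360 genes passed either limit. Of the 112 genes higher in PB, 93 were measured in BM, all of them were above 0 there with a median ratio of 0.83, and 29 passed the limit. Over all 2416 genes measured in both libraries 50.6% were above 0 in BM with a median of 0.00. In AT, 68 of 69 measured genes were above 0 with a median of 0.40 and none passed, where 60.9% of all 2165 genes measured in both were above 0 with a median of 0.04. The AT entries with PB barcodes described above failed the filters, and 3 of the PB high cells shared a barcode with a kept AT cell.

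Leading genes varied between the libraries. *LAMP2* stood at 141 CPM in the BM high cells and 40.8 CPM in the other BM cells (ratio 1.76), and at 57.5 and 40.3 CPM in AT (0.50). *PCOLCE* stood at 342 and 108 CPM in BM (1.65) and at 246 and 156 CPM in AT (0.65). *CTSK* stood at 1272 and 422 CPM in BM (1.59) and at 81.7 and 61.3 CPM in AT (0.41). *SERPINF1* stood at 183 and 65.8 CPM in BM (1.46) and at 219 and 175 CPM in AT (0.33). Of the lower genes, *UBE2C* stood at 46.6 and 165 CPM in BM (-1.80) but at 88.0 and 86.8 CPM in AT (0.02). Of the 14 genes lower in PB, 12 were below 0 in BM with a median of -0.79 and 6 passed the limit, whereas in AT 9 of 13 measured were above 0. *CCL26* and *ACTG2* had ratios of 0.14 and -0.19 in BM and of 0.39 and 0.64 in AT. The mitochondrial share was 1.73% in the BM high cells and 1.98% in the other BM cells, and 1.42% and 1.46% in AT. The libraries differ in the number of UMIs of both genes per cell, so a difference between the libraries in these ratios and one in how exactly the ranking chose the cells cannot be told apart.

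**Figure D5:**
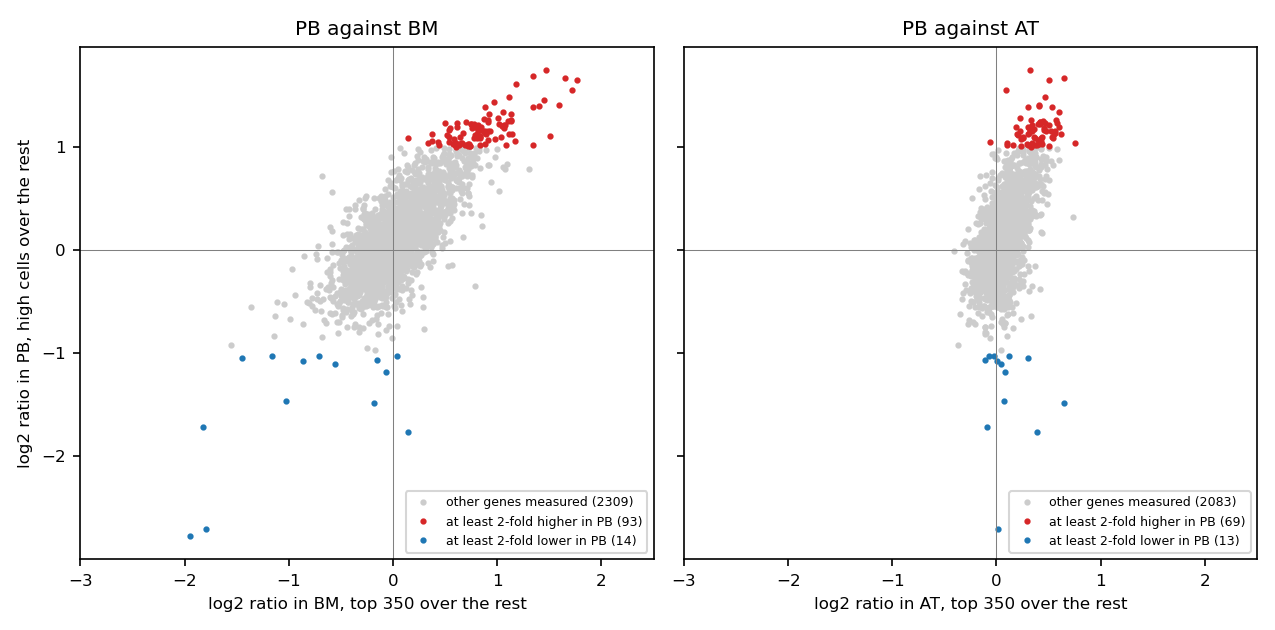
Log2 ratio in PB (y axis) against the log2 ratio from the same ranking in BM (left, 2416 genes) and AT (right, 2165 genes) for genes with at least 50 CPM in either group of both libraries, with the genes higher in PB in red and those lower in PB in blue. All 93 red genes lie above 0 in BM and 68 of 69 in AT.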

How the data were processed

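Droplet scRNA-seq libraries of cultured AT, BM and PB MSCs of 1 mare were analysed. The deposited matrices hold raw UMI counts, 1 row a gene and 1 column a barcode, which the authors made with CellRanger 3.0.1 and ESAT on EquCab3.0. The multiplet caller of the methods was not run here, and whether its calls had been removed from the matrices is not given in the sources used here. No doublet caller was used in the main comparison.

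UMIs were summed over the cells of each group and scaled to CPM in Python 3.11.15 with NumPy 2.4.6, SciPy 1.17.1 and pandas 2.3.3, and ratios were differences of log2(CPM + 1). Genes with at least 50 CPM in either group were compared, which are the genes called measured. Named were the 25 genes with a symbol and the largest ratios, the 20 with the smallest, the 3 of each list with the largest absolute ratio and at most 2 identifiers without a symbol in each direction. A few other genes are named where a sentence turns on them, and the values of some genes under the rule are not reported here. The members and the gene lists were chosen with earlier results of these data known. With 1 library per source no test was run. The computation was tested on simulated data. Alternatives changed the ranking, the number of cells, thinning to 2500 UMIs, the pseudocount, the filter on genes, the scaling, the cell limits and, with Scrublet in Scanpy 1.11.5, the removal of the top 5% of cells by doublet score. Ensembl identifiers could not be paired with names, and no sequence is printed.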

Additional observations from a re-analysis of the deposited data

Results flagged for a closer look

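Entries of the AT matrix that the comparison did not use carried the genes by which the PB cells were chosen. At the 347 AT entries that carry the barcode of a *PIGK* and *PLTP* high PB cell and failed the filters, *PIGK* and *PLTP* together made 717 CPM (624 to 820, counting error only). At the 4934 AT entries with the barcodes of other kept PB cells they made 171 CPM (158 to 184), and in the kept AT cells 128 CPM.

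The 25 leading genes of the PB high cells made 9991 CPM (9634 to 10358) at the same 347 AT entries, against 3704 CPM (3645 to 3762) at the 4934 others and 4411 CPM in the kept AT cells. In the PB high cells themselves the same genes made 9868 CPM. Of the 6180 PB barcodes 5788 stood in the AT matrix. The AT entries held a median of 859 and 827 UMIs. Whether they hold the same molecules as the PB cells was not tested, so they are not separate evidence on these cells.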

How the results depend on the processing

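Against 112 higher and 14 lower genes, the counts were 22 and 4 with cells ranked on UMIs thinned to 2500, 36 and 7 with the top 700 cells, 39 and 4 with *PIGK* alone, 47 and 9 with *PLTP* alone, 32 and 7 with a pseudocount of 25 CPM, 186 and 78 with a minimum of 10 CPM, 37 and 3 with a minimum of 200 CPM, and 15 and 0 among cells below the median S and G2/M share, where the same 350 were drawn from 2659 cells. Thinning the same members left 9 lower genes, and the mean of single-cell CPM left 7. In place of 8 lists with a median of at least 0.5 there were 3, 5, 5 and 2 with thinned ranking, the top 700 cells, *PLTP* alone and the cells of low cycle share. The median UMIs of the members, and of the others, were 7615.5 and 7755.5 with *PIGK* alone, 7592 and 7577 with a lower limit of 500 UMIs and 7499 and 7590 among the cells of low cycle share. The mitochondrial share of the members was 1.20% with thinning, 1.29% with thinned ranking, 1.12% with the top 200 cells, 1.27% with the top 700, 1.20% with *PIGK* alone, 1.25% with *PLTP* alone, 1.18% as the mean of single-cell values, 1.21% without the mitochondrial limit and 1.33% among the cells of low cycle share. Of 810 values of named genes under alternatives, 600 moved by less than counting error, 210 moved by more and 0 changed sign past the limit. The 512 list medians were judged by a fixed step in log2 ratio, not by counting error. Of them 478 moved by less than that step and 34 by more. Among those of lists at 0.5 or beyond in either direction, 0 changed sign. The alternative without PB cells whose barcode was also kept in AT or BM was chosen after seeing the data. The planned one without any barcode that the AT or BM matrix holds could not be run, since no kept PB cell would be left. No paired analysis was possible because each source had 1 library, and no library could be left out.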
